A study of Mus musculus with 12 samples.

Results

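The globin genes and 2 genes of the red cell were followed in RNA-seq of mouse neocortex: the embryonic globins Hbb-y, Hbb-bh1 and Hba-x, the adult globins Hbb-bs, Hbb-bt, Hba-a1 and Hba-a2, the heme synthesis gene Alas2 and the anion exchanger gene Slc4a1. They were chosen by symbol as known globin and red cell genes, and all 9 were found among the 46603 gene identifiers of the count tables. Tissue was microdissected from embryos at embryonic day 12.5 (E12.5, both hemispheres) and from pups at postnatal day 5 (P5, 1 hemisphere), in Chd8+/+ and Chd8+/- mice on a C57BL/6J background, with 3 libraries per genotype and stage and 12 in all. The Chd8+/- mice carried 1 null allele made by deleting exon 3 of a floxed Chd8 allele with the general deleter β-actin-Cre, so the deletion was not limited to cortical cells and blood cells carried it too. No step to remove blood from the tissue is given in the sources used here.

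Hemoglobin is built from alpha-type and beta-type globin chains with heme. In the mouse, red cells made in the yolk sac carry chains of the embryonic genes, and red cells made later in the fetal liver and the bone marrow carry chains of the adult genes. The beta-type genes lie in 1 cluster and the alpha-type genes in another, each with its embryonic gene ahead of the adult ones. In a brain region, globin RNA comes largely from blood in its vessels, although low amounts of adult globin RNA are also known in neurons and glia. In bulk tissue, fewer red cells and less globin RNA per red cell cannot be told apart.

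On chromosome 7 of GRCm38, on the minus strand and in order of transcription, lay Hbb-y (chr7:103851745-103853240), Hbb-bh1 (chr7:103841636-103843164), Hbb-bs (chr7:103826534-103828096) and Hbb-bt (chr7:103812524-103813996). On the plus strand of chromosome 11 lay Hba-x (chr11:32276400-32278116), Hba-a1 (chr11:32283511-32284465) and Hba-a2 (chr11:32296489-32297298). Slc4a1 lay apart from them on chromosome 11 (chr11:102348824-102366203, minus strand) and Alas2 on chromosome X (chrX:150547375-150570638, plus strand). The exons of the 7 globin genes and of Slc4a1 overlapped those of no other gene in the count tables. Those of Alas2 overlapped Apex2 and Mir3620 on the other strand, and the counting command recorded for P5 used no strand.

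The adult genes come in near-identical pairs, which bears on every value given for them. Over 429 coding bases, Hba-a1 and Hba-a2 differed at 1 base (C381T, Hba-a1 base first, counted from the A of the start codon), and over 444 coding bases Hbb-bs and Hbb-bt also differed at 1 base (C417T, Hbb-bs base first). The 25 coding bases around each difference are shown because they are the only coding sequence that tells the members of a pair apart, with the differing base in capitals (GENCODE transcripts, GRCm38).
Hba-a1: tgcctctctggaCaaattccttgcc
Hba-a2: tgcctctctggaTaaattccttgcc
Hbb-bs: ggctggagtggcCgctgccctggct
Hbb-bt: ggctggagtggcTgctgccctggct
These bases lay at position 32284343 of chromosome 11 in Hba-a1, at 32297160 in Hba-a2, and on chromosome 7 at 103826692 in Hbb-bs and 103812683 in Hbb-bt. Of all windows of 100 bases in the main transcript, 56.5% in Hba-a1 and 74.5% in Hba-a2 were also found in the other gene, as were 62.6% in Hbb-bs and 54.8% in Hbb-bt. With windows of 50 bases these shares were 67.5%, 86.9%, 65.8% and 58.3%. No window of either length in Hbb-y, Hbb-bh1 or Hba-x was found in another gene. How reads were shared within a pair is therefore uncertain. The command recorded for P5 did not ask featureCounts to count reads that map to several places, which it then leaves out, and the command for E12.5 is not given in the sources used here. Each adult pair is also given as its sum, which does not depend on the sharing but does depend on reads left out.

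The levels given below turn on which globin gene is read in each stage, so the 120 bases before their start sites are shown for 5 of the 7 genes with an entry in the RefSeq promoter table (GRCm38.p6). Capitals mark 4 motifs searched on both strands. The first was CACCC, which Klf-type factors are known to bind. The next was CCAAT, the CCAAT box, and overlaps between motifs were kept. The third was GATA, the core of the sites that Gata factors bind. The last was ATAAA, part of many TATA boxes.
Hbb-y (chr7:103853208-103853327, minus strand): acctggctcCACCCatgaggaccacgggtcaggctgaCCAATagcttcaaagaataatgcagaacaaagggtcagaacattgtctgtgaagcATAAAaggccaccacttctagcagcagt
Hba-x (chr11:32276480-32276599, plus strand): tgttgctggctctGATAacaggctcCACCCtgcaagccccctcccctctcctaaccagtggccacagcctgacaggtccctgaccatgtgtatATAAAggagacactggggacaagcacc
Hbb-bs (chr7:103827929-103828048, minus strand): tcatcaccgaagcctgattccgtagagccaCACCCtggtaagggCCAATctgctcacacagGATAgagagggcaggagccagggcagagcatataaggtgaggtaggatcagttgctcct
Hbb-bt (chr7:103813924-103814043, minus strand): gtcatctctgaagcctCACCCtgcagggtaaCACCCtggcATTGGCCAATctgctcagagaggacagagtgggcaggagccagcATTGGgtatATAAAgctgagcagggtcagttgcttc
Hba-a2 (chr11:32296372-32296491, plus strand): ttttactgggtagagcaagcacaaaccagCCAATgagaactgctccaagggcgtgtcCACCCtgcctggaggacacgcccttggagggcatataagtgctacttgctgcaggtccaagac
CACCC stood in all 7 genes with an entry, in the embryonic and the adult genes alike, and in 31.7% of the same stretch of 32851 promoters. CCAAT stood in 5 of the 7 and in 21.3% of promoters. GATA stood in 3 of 7 against 29.5%, and ATAAA in 4 of 7 against 20.2%. Beside the 5 shown, Hba-a1 and Alas2 make up the 7. The ATAAA of Alas2 lay on the minus strand, 87 bases before the start site. Hbb-bs, Hba-a1 and Hba-a2 held no ATAAA but held the unmarked letters tataa. The search therefore does not show that they lack a TATA box. Hba-a1 and Hba-a2 matched at 117 of 117 bases once shifted by 3 bases, whereas Hbb-bs and Hbb-bt matched at 88 of 119 bases. These letters are a description of the sequence and were not tested against expression.

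Each library held between 38774591 and 54695236 counts in genes. CPM, the counts of a gene relative to the library total, are given after scaling by the trimmed mean of M values, and RPKM divides them by gene length, so that RPKM values are on 1 scale across genes, with the limit that the adult genes share sequence with a copy and the embryonic genes do not. Chd8 lay between 228.5 and 235 CPM in E12.5 Chd8+/+ and between 161 and 167 CPM in E12.5 Chd8+/- libraries, and between 145 and 151 and between 94.97 and 98.6 CPM at P5, so every library matched its genotype label. It was the 1 gene called for genotype at each stage (edgeR quasi-likelihood test, adjusted p = 0.00562 at E12.5 and 7.21e-05 at P5). At P5 that count depended on the method, with 651 genes called by DESeq2 and 995 by edgeR with no filter on low counts. The 10 cortical markers (Emx1, Tbr1 and others) were detected in all 12 libraries, with a summed level of 956 to 1415 CPM.

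The embryonic globins were abundant in the E12.5 neocortex and all but absent at P5, in both genotypes. Hbb-y, the embryonic epsilon-type chain of the beta cluster, stood at 1904, 1714 and 2166 CPM in the 3 E12.5 Chd8+/+ libraries and at 1829, 2398 and 2628 CPM in the 3 E12.5 Chd8+/- libraries. At P5 it had 2, 1 and 0 counts in Chd8+/+ and 4, 0 and 3 counts in Chd8+/- libraries. The stages were separated by orders of magnitude, and the genotypes overlapped within each. In Chd8+/+ libraries the level at E12.5 was 91918 times that at P5 (95% interval 31452 to 445721, counting error only) and in Chd8+/- libraries 43258 times (20995 to 107593).

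Hba-x, the embryonic zeta chain of the alpha cluster, stood at 894, 723 and 988 CPM in E12.5 Chd8+/+ and at 718, 1192 and 1056 CPM in E12.5 Chd8+/- libraries. At P5 it had 1 count in 1 library of each genotype and 0 counts in the other 4. The E12.5 level was 124555 times the P5 level in Chd8+/+ (95% interval 22355 to 4919720, counting error only) and 131129 times in Chd8+/- (23535 to 5179370). Since each of these P5 levels rested on a single count, the ratios gave little more than an order of magnitude.

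Hbb-bh1, the other embryonic beta-type gene and one that is known to precede Hbb-y in the yolk sac, was the lowest of the 3 embryonic genes and the one that varied most. It stood at 166, 114 and 156 CPM in E12.5 Chd8+/+ and at 103, 268 and 189 CPM in E12.5 Chd8+/- libraries, and it took 7.48% ± 0.991 (SD, n = 3) and 7.89% ± 2.57 of the embryonic beta-type reads per kilobase. At P5 it had 2 counts in 1 Chd8+/+ library and none in the other 5. The E12.5 level was 10467 times the P5 level in Chd8+/+ (95% interval 2897 to 86433). In Chd8+/- it was 8303-fold higher against a floor of 3 counts over the 3 P5 libraries. The exact 95% interval for 0 counts had a lower limit of 6752-fold there.

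**Figure D1:**
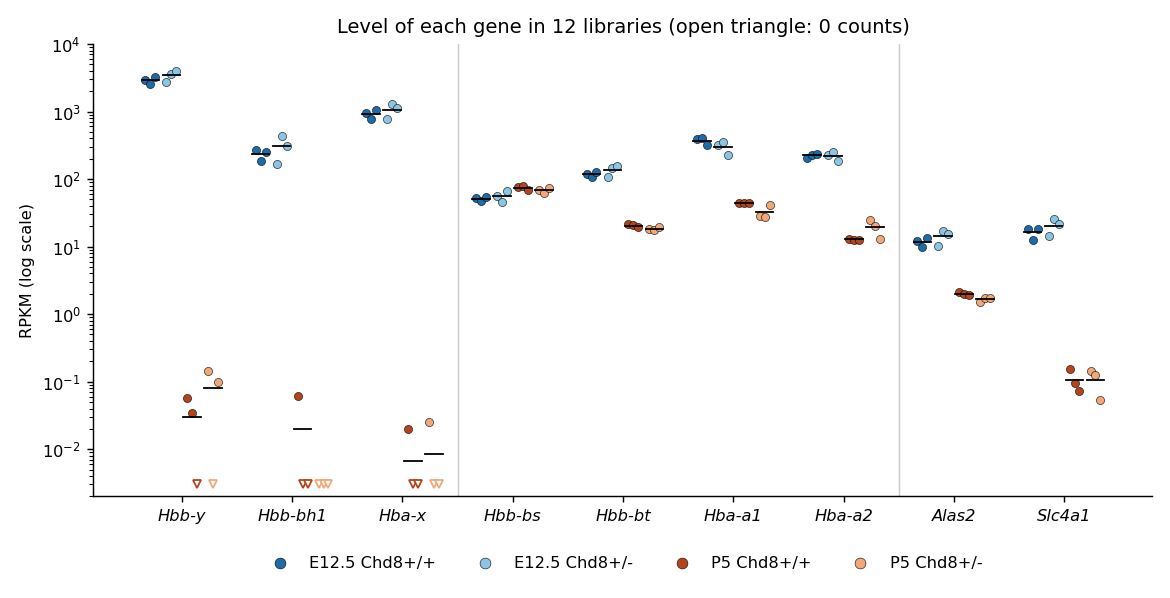
RPKM on a log scale (y axis) of each of the 9 genes (x axis) in 12 libraries. Points are libraries, bars are means of 3 libraries, and open triangles are libraries with 0 counts. The 3 embryonic globins on the left fall from between 168 and 3975 RPKM at E12.5 to 0.145 RPKM or less at P5, while Hbb-bs is the only gene whose mean is higher at P5.

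The adult genes did not move in parallel. Hbb-bs, one of the adult beta-type genes of the C57BL/6 strains, stood at 45.2, 41.0 and 46.8 CPM in E12.5 Chd8+/+ libraries and at 64.8, 67.7 and 59.3 CPM in P5 Chd8+/+ libraries, with no overlap. It rose 1.44-fold (log2 fold change 0.53 ± 0.109 SE, edgeR adjusted p = 0.000437). In Chd8+/- libraries it stood at 49.0, 38.9 and 56.7 CPM at E12.5 and 59.4, 54.0 and 64.3 CPM at P5, where the highest E12.5 library lay above the lowest P5 library. It rose 1.23-fold there (log2 fold change 0.30 ± 0.110 SE, edgeR adjusted p = 0.0212). This call was lost without E12.5 Chd8+/- replicate 2 (log2 fold change 0.16, edgeR adjusted p = 0.0904) and without P5 Chd8+/- replicate 3 (0.23, edgeR adjusted p = 0.0902).

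Hbb-bt, the other adult beta-type gene, went the opposite way. It stood at 84.2, 76.2 and 90.0 CPM in E12.5 Chd8+/+ and at 15.1, 14.5 and 13.6 CPM in P5 Chd8+/+ libraries, and at 75.2, 103 and 110 CPM in E12.5 Chd8+/- and 12.8, 12.2 and 13.9 CPM in P5 Chd8+/- libraries. The stages were far apart in both genotypes. It fell 5.79-fold in Chd8+/+ (log2 fold change -2.53 ± 0.121 SE, edgeR adjusted p = 4.48e-11) and 7.43-fold in Chd8+/- libraries (-2.89 ± 0.123, edgeR adjusted p = 1.16e-11).

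The ratio of Hbb-bs to Hbb-bt, in reads per kilobase, therefore turned over between the stages. It was 0.433 ± 0.00798 (SD, n = 3) in E12.5 Chd8+/+ and 0.418 ± 0.112 in E12.5 Chd8+/- libraries, and 3.62 ± 0.158 and 3.72 ± 0.107 at P5. In Chd8+/+ the 3 E12.5 libraries kept within 0.424 to 0.439, while in Chd8+/- they ran from 0.306 to 0.531. The sum of both genes fell from 128 ± 9.91 to 78.3 ± 4.85 CPM in Chd8+/+ (log2 fold change -0.71, edgeR adjusted p = 6.2e-06) and from 144 ± 21.6 to 72.2 ± 6.00 CPM in Chd8+/- libraries (-1.002, edgeR adjusted p = 1.41e-07). The rise was thus seen for Hbb-bs alone and not for the adult beta-type RNA as a whole.

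**Figure D2:**
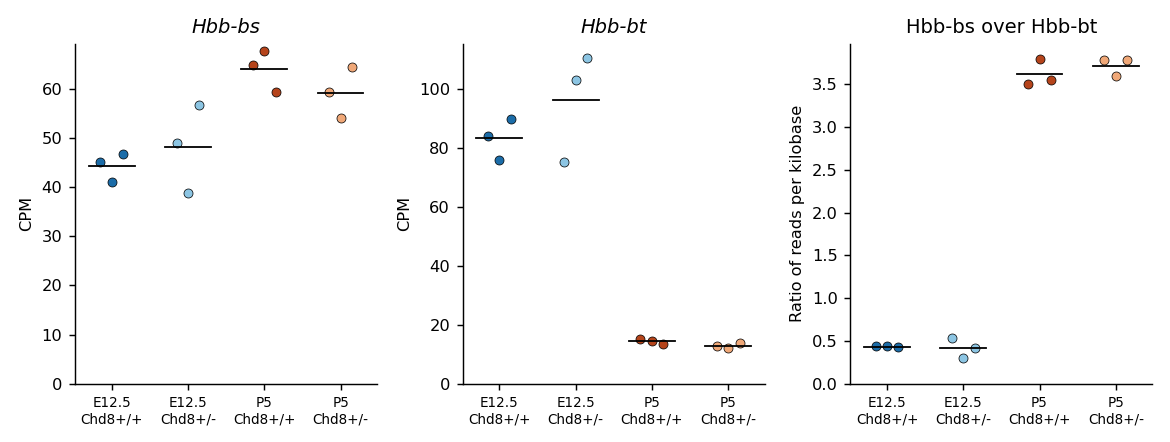
CPM of Hbb-bs and Hbb-bt (y axes, left and centre) and the ratio of their reads per kilobase (y axis, right) in the 4 groups. Points are libraries and bars are means of 3 libraries. Hbb-bs is higher and Hbb-bt lower at P5, and the ratio lies at 0.531 or less in every E12.5 library and at 3.50 or more in every P5 library.

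Both adult alpha genes fell. Hba-a1 stood at 320, 326 and 258 CPM in E12.5 Chd8+/+ and at 35.9, 35.3 and 35.3 CPM in P5 Chd8+/+ libraries, and at 258, 289 and 182 CPM in E12.5 Chd8+/- and 23.2, 22.4 and 33.4 CPM in P5 Chd8+/- libraries. It fell 8.48-fold in Chd8+/+ (log2 fold change -3.08 ± 0.171 SE, edgeR adjusted p = 2.61e-10) and 9.20-fold in Chd8+/- libraries (-3.20 ± 0.174, edgeR adjusted p = 2.05e-10). Every P5 library lay below every E12.5 library.

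Hba-a2 stood at 136, 153 and 159 CPM in E12.5 Chd8+/+ and at 8.68, 8.36 and 8.47 CPM in P5 Chd8+/+ libraries, and at 149, 166 and 123 CPM in E12.5 Chd8+/- and 16.4, 13.4 and 8.78 CPM in P5 Chd8+/- libraries. It fell 17.5-fold in Chd8+/+ (log2 fold change -4.13 ± 0.170 SE, edgeR adjusted p = 7.96e-12) and 11.4-fold in Chd8+/- libraries (-3.51 ± 0.164, edgeR adjusted p = 3.35e-11). Summed, the pair fell from 451 ± 31.9 to 44.0 ± 0.474 CPM in Chd8+/+ and from 389 ± 76.7 to 39.2 ± 3.17 CPM in Chd8+/- libraries, with log2 fold changes of -3.36 and -3.31 (edgeR adjusted p = 1.69e-12 and 1.95e-12). The sum thus fell by nearly the same amount in both genotypes, although the split between the copies did not.

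The values of Hba-a1 and Hba-a2 at E12.5 also depended on the sequencing run. The tables give each library as 2 columns, called runs here, and at E12.5 the ratio of run 1 to run 2, scaled by the totals of the runs, lay between 0.337 and 4.26 for Hba-a1 and between 0.216 and 1.15 for Hba-a2. For the other 7 genes it lay between 0.949 and 1.14. In E12.5 Chd8+/+ replicate 3, Hba-a1 had 10071 counts in run 1 and 2258 in run 2, and in E12.5 Chd8+/- replicate 2 it had 3374 and 9556. Hba-a2 had 1109 and 4907 counts in the runs of E12.5 Chd8+/- replicate 3. Both runs are of the same library, so these differences are not between animals.

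Whether the other copy made up for the lower run differed between libraries. In E12.5 Chd8+/+ replicate 3 the sum of both genes was 14223 counts in run 1 and 5696 in run 2, whereas in E12.5 Chd8+/- replicate 3 it was 7454 and 7416. Runs at least 1.5-fold apart in at least 1 library were found for 2 of the 9 genes at E12.5, against 0.105% of the 11462 genes with at least 200 counts, both runs summed, in every library, and for 0 of the 4 genes with that many counts at P5, against 0.1% of 11962 genes. With run 1 alone or run 2 alone, Hba-a1 and Hba-a2 still fell with stage: the log2 fold change of Hba-a1 in Chd8+/+ was -3.31 and -2.79 and that of Hba-a2 was -4.04 and -4.22.

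**Figure D3:**
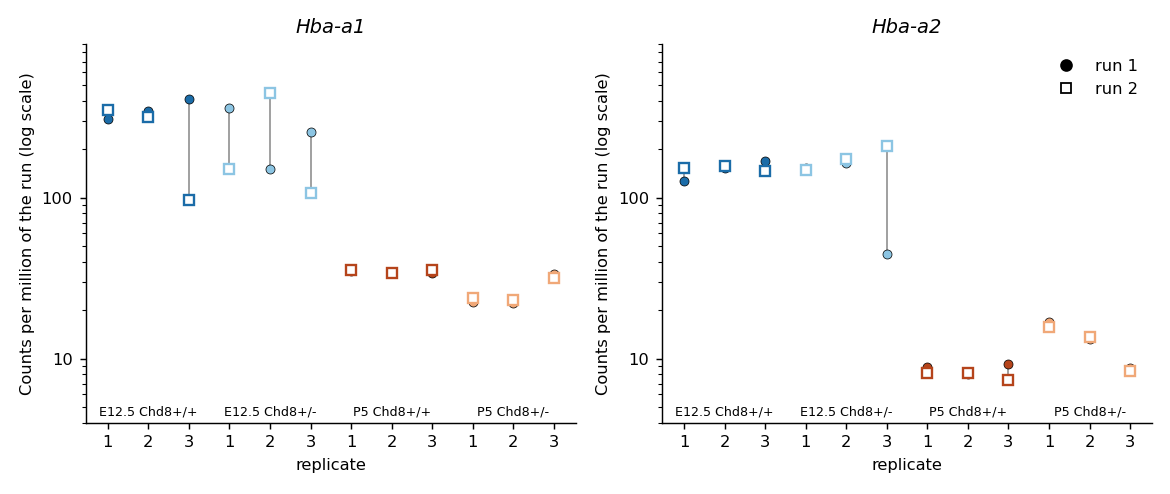
CPM of the run on a log scale (y axis) for Hba-a1 and Hba-a2 in run 1 (filled circles) and run 2 (open squares) of each of 12 libraries (x axis). Lines join the runs of a library. The runs of Hba-a1 lie apart in 4 of 6 E12.5 libraries and those of Hba-a2 in 1, and at P5 the runs lie close together while Chd8+/- replicates 1 and 2 differ from the other 4 libraries in both genes.

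Embryonic genes made up most of the globin RNA at E12.5 and almost none at P5. Their share of the reads per kilobase of the 7 globin genes was 84.2%, 81.8% and 86.1% in E12.5 Chd8+/+ libraries and 84.0%, 87.0% and 89.5% in E12.5 Chd8+/- libraries, or 84.1% ± 2.15 and 86.8% ± 2.78 (SD, n = 3). At P5 it was 0.0371% ± 0.0462 and 0.0624% ± 0.0608, with 1 library of each genotype at 0%. The genotypes overlapped at both stages, and as a description of genes chosen with results known the share was given no test. Only the adult genes have near-identical copies, and the part of uncounted shared reads in this share and in the order of levels was not tested.

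The 2 clusters differed in this balance at E12.5. Embryonic genes made up 94.9% ± 0.206 of the beta-type reads per kilobase in Chd8+/+ and 95.1% ± 0.387 in Chd8+/- libraries, and 60.6% ± 5.29 and 66.6% ± 7.47 of the alpha-type reads. The beta-type share lay above the alpha-type share in each of the 6 E12.5 libraries, by more than the spread between libraries. The alpha-type share included Hba-a1 and Hba-a2 with their unequal runs, whereas the runs of the beta-type genes differed by 1.14-fold at most. The ratio of all alpha-type to all beta-type reads per kilobase was 0.459 ± 0.0234 and 0.401 ± 0.0532 at E12.5 and 0.598 ± 0.0366 and 0.594 ± 0.0174 at P5.

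**Figure D4:**
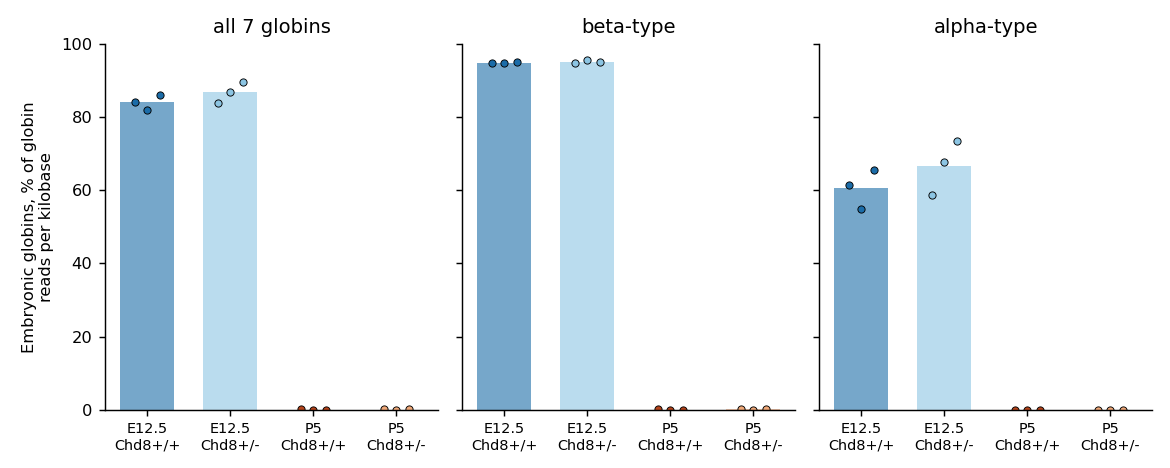
Share of globin reads per kilobase that came from embryonic genes (y axis, percent) over all 7 globins, the beta-type genes and the alpha-type genes, in the 4 groups (x axis). Bars are means of 3 libraries and points are libraries. At E12.5 the beta-type share stays within 94.7% to 95.5% while the alpha-type share runs from 55.0% to 73.4%, and at P5 no library exceeds 0.166%.

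The order of the levels, in RPKM, changed accordingly. In E12.5 Chd8+/+ libraries the means ran from Hbb-y (2917) through Hba-x (926), Hba-a1 (371), Hbb-bh1 (237), Hba-a2 (224), Hbb-bt (119), Hbb-bs (51.4) and Slc4a1 (16.2) to Alas2 (11.7). Hbb-bh1 overlapped Hba-a2, and Slc4a1 overlapped Alas2, while the other neighbours did not overlap. In P5 Chd8+/+ libraries the order was Hbb-bs (74.1), Hba-a1 (43.7), Hbb-bt (20.5), Hba-a2 (12.7), Alas2 (2.00) and Slc4a1 (0.106), with the 3 embryonic genes below them and overlapping each other. In Chd8+/- libraries Hbb-bh1, Hba-a1 and Hba-a2 overlapped at E12.5, and Hba-a2 (19.3) and Hbb-bt (18.4) changed places and overlapped at P5.

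The 2 red cell genes fell to different depths. Alas2, which encodes the erythroid form of the first enzyme of heme synthesis, stood at 29.3, 23.5 and 31.8 CPM in E12.5 Chd8+/+ and 5.10, 4.71 and 4.63 CPM in P5 Chd8+/+ libraries, and at 24.8, 41.3 and 37.1 CPM in E12.5 Chd8+/- and 3.64, 4.15 and 4.22 CPM in P5 Chd8+/- libraries. It fell 5.85-fold in Chd8+/+ (log2 fold change -2.55 ± 0.169 SE, edgeR adjusted p = 2.19e-09) and 8.60-fold in Chd8+/- libraries (-3.10 ± 0.174, edgeR adjusted p = 3.07e-10). Relative to the 7 globins it rose, from 2.41 ± 0.140 to 13.3 ± 0.590 reads per kilobase per 1000 of globin in Chd8+/+ and from 2.57 ± 0.231 to 12.1 ± 1.38 in Chd8+/- libraries.

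Slc4a1, which encodes the band 3 anion exchanger of the red cell membrane, stood at 88.9, 61.8 and 87.7 CPM in E12.5 Chd8+/+ and 70.2, 126 and 104 CPM in E12.5 Chd8+/- libraries. At P5 it stood at 0.745, 0.459 and 0.353 CPM in Chd8+/+ and at 0.695, 0.610 and 0.258 CPM in Chd8+/- libraries, that is 12 to 40 counts per library. It fell 149-fold in Chd8+/+ (log2 fold change -7.22 ± 0.307 SE, edgeR adjusted p = 1.16e-11) and 194-fold in Chd8+/- libraries (-7.60 ± 0.312, edgeR adjusted p = 7.63e-12). It fell further than the globins did as a whole, from 3.34 ± 0.408 to 0.698 ± 0.257 reads per kilobase per 1000 of globin in Chd8+/+ and from 3.66 ± 0.477 to 0.782 ± 0.370 in Chd8+/- libraries. The ratio of Alas2 to Slc4a1 in reads per kilobase went from 0.728 ± 0.0523 to 20.5 ± 6.39 in Chd8+/+.

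Counted together, 8 of the 9 genes were called lower and 1, Hbb-bs, higher at P5 in each genotype (edgeR, adjusted p under 0.05). Most genes changed with stage, so these counts are read against the background: in Chd8+/+ libraries 41.7% of the 19676 genes tested were called lower and 41.4% higher, and in Chd8+/- libraries 41.6% and 41.3%. The 3 embryonic genes passed the filter on low counts through E12.5 only and could be called only lower, so their calls add nothing to their values. By fitted log2 fold change, from the lowest of the 19676 genes, Slc4a1 held place 21 in Chd8+/+ and 23 in Chd8+/- libraries, Hba-a2 place 197 and 413, and Hbb-bt place 840 and 690. The 2 stages were deposited as separate tables, and stage cannot be told apart from how each stage was collected, sequenced and counted.

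Other markers of red cells and their precursors were also low at P5. Of 8 erythroid markers 7 were matched. They passed the filter on low counts through E12.5 only, so no count of calls is given for them. Their summed level lay between 23.0 and 53.3 CPM in the 6 E12.5 libraries and between 0.359 and 0.772 CPM in the 6 P5 libraries, where 1 to 4 of the 7 were at 0. Gata1, the erythroid master regulator, had 222 counts over the E12.5 Chd8+/+ libraries, 2 over the P5 Chd8+/+ libraries and 0 over the P5 Chd8+/- libraries. Adult globin RNA at P5 thus stood beside erythroid markers close to 0, and their part in it was not tested. The 7 markers are also members of the lists that follow.

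Among other globin genes, 5 of the 7 matched could be tested, of which 1 was called lower and 4 higher at P5 in both genotypes (edgeR, adjusted p under 0.05, against 41.7% and 41.4% of all genes in Chd8+/+). Their median change in Chd8+/+ was 2.33 on the log2 scale, against -0.02 over all genes. Hbb-bh0 passed the filter on low counts through E12.5 only and Hbq1a through P5 only, so each could be called in 1 direction only. The lower one was Hbb-bh0, a further embryonic beta-type gene, with 113 counts over the E12.5 Chd8+/+ libraries, 129 over the E12.5 Chd8+/- libraries and none at P5. Ngb, neuroglobin of neurons, rose from 0.265 to 4.76 CPM in Chd8+/+ libraries (log2 fold change 4.12 ± 0.221 SE, edgeR adjusted p = 1.84e-10). The theta-like alpha-cluster genes Hbq1a and Hbq1b rose from 0.0635 to 0.882 CPM (3.76 ± 0.425, edgeR adjusted p = 1.08e-06) and from 0.768 to 2.04 CPM (1.41 ± 0.212, edgeR adjusted p = 2.17e-05). The fourth was Cygb, cytoglobin, at 2.33, which was named after its values were seen.

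The counts of called genes in the lists that follow are read against the same background, 41.7% of all genes lower and 41.4% higher in Chd8+/+. Of 14 genes of heme synthesis and iron import tested, 5 were called lower and 6 higher in Chd8+/+, and 6 and 6 in Chd8+/- libraries, shares near the background, with a median log2 fold change of 0.15 and -0.02. Slc25a37, mitoferrin of the red cell line, fell from 75.1 ± 16.5 to 16.2 ± 1.10 CPM in Chd8+/+ (log2 fold change -2.22 ± 0.182 SE, edgeR adjusted p = 2.8e-08). Urod, Ppox and Alad, enzymes of heme synthesis named after their values were seen, were also among the 5. Steap3, a ferrireductase, rose from 2.26 to 6.69 CPM (1.56 ± 0.221, edgeR adjusted p = 1.17e-05), and Alas1, the housekeeping counterpart of Alas2, rose from 33.6 to 45.8 CPM (0.45 ± 0.0530, edgeR adjusted p = 1.79e-06). Alas1 and Alas2 thus moved in opposite directions with stage.

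Of 15 red cell membrane and cytoskeleton genes tested, 9 were called lower and 6 higher in both genotypes, the higher share being near the 41.4% of all genes, with a median log2 fold change of -2.10 in Chd8+/+. Kel, a blood group antigen, had 1967 counts over the E12.5 and 7 over the P5 Chd8+/+ libraries (log2 fold change -8.04, edgeR adjusted p = 1.53e-10), and Epb42, protein 4.2 that binds band 3, had 1084 and 6 (-7.39, edgeR adjusted p = 9.99e-10). Dmtn, an actin-bundling protein, rose from 18.8 to 247 CPM (3.71 ± 0.0618 SE, edgeR adjusted p = 7.72e-16) and Sptb, beta spectrin, from 15.95 to 114 CPM (2.83 ± 0.184, edgeR adjusted p = 1.81e-09). Both are also known in neurons.

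Of 13 further red cell genes, 9 were called lower and 2 higher in each genotype (not the same 9 genes throughout), against the 41.7% and 41.4% of all genes in Chd8+/+. Their median change in Chd8+/+ was -0.85 on the log2 scale. Cldn13 went from 100 counts over the E12.5 Chd8+/+ libraries to none at P5, and Hemgn, a nuclear protein of erythroid precursors, from 540 to 2. Fam210b, 1 of the 2 that rose, went from 28.4 to 41.05 CPM (log2 fold change 0.53 ± 0.0676 SE, edgeR adjusted p = 3.99e-06). Of 18 erythroid and globin switching regulators, 13 were called lower and 4 higher in Chd8+/+ and 13 and 3 in Chd8+/- libraries, against the same background, with a median of -1.15 in Chd8+/+. Of the 18, 14 could be tested at P5. Gata1, Klf1, Nfe2 and Gfi1b passed the filter on low counts through E12.5 only and could be called only lower. Gfi1b, a repressor of erythroid genes, went from 143 counts to 1 in Chd8+/+ libraries. Klf2, a regulator known for primitive red cells and endothelium, rose from 3.68 to 8.19 CPM (1.15 ± 0.101, edgeR adjusted p = 6.1e-08), and Zfpm1, the partner of Gata1, from 7.32 to 12.3 CPM (0.75 ± 0.180, edgeR adjusted p = 0.00145). Foxo3 and Zbtb7a, named after their values were seen, were the other 2 that rose in Chd8+/+ libraries.

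**Figure D5:**
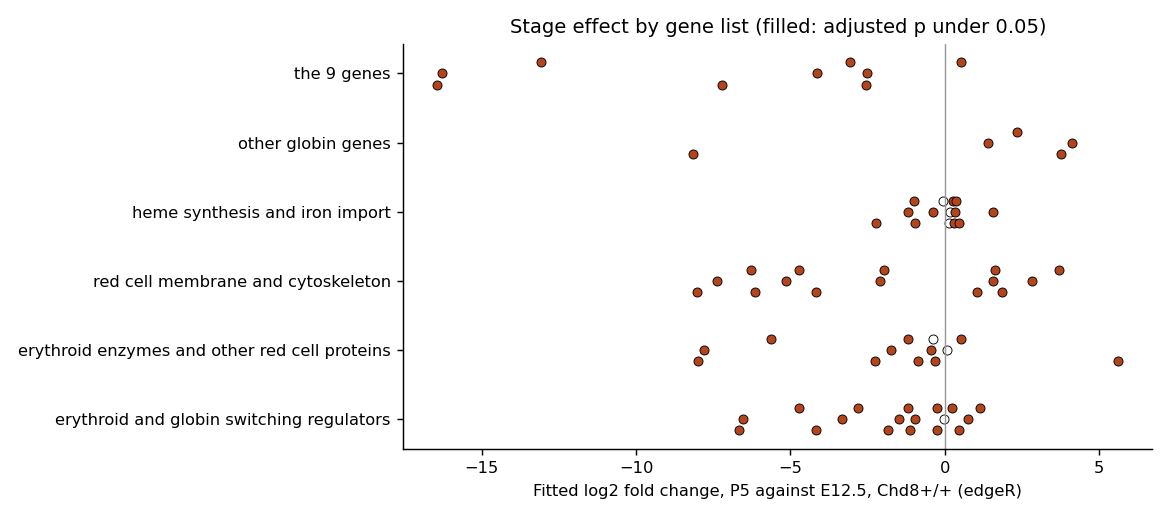
Fitted log2 fold change from E12.5 to P5 in Chd8+/+ libraries (x axis, edgeR) for the 9 genes and for each tested gene of 5 related lists (y axis). Filled points have an adjusted p under 0.05. The 3 embryonic globins lie furthest to the left, fitted values of genes near 0 at P5 depend on the prior count, and the heme synthesis list lies around 0.

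Chd8 genotype made no called difference at E12.5. None of the 9 genes was called by edgeR, DESeq2 or limma-voom, and none had an unadjusted p under 0.05 (edgeR), where 0.00553% and 5.15% of the 18081 genes tested were called by the adjusted and the unadjusted rule. The libraries of the genotypes overlapped for each of the 9, whereas 11.4% of all genes showed no overlap. Log2 fold changes ran from -0.31 ± 0.154 SE for Hba-a1 (95% interval -0.66 to 0.03, edgeR adjusted p = 0.942) to 0.36 ± 0.279 for Hbb-bh1 (-0.27 to 0.99, edgeR adjusted p = 0.964). The estimate for Hba-a1 was -0.47 with run 1 alone, -0.11 with run 2 alone, -0.45 without Chd8+/- replicate 2 and -0.14 without Chd8+/- replicate 3. The estimate for Hbb-bh1 was 0.015 without Chd8+/- replicate 2 and 0.65 without Chd8+/- replicate 1, and that for Hba-x was 0.034 and 0.37.

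The estimates for the other members lay between these. They were 0.25 for Hbb-y (95% interval -0.04 to 0.54), 0.19 for Hba-x (-0.20 to 0.57), 0.12 for Hbb-bs (-0.15 to 0.39), 0.21 for Hbb-bt (-0.07 to 0.49), -0.03 for Hba-a2 (-0.25 to 0.19), 0.29 for Alas2 (-0.10 to 0.68) and 0.33 for Slc4a1 (-0.11 to 0.77). With each library left out in turn they ran from 0.13 to 0.38 for Hbb-y, 0.096 to 0.36 for Hbb-bt, 0.14 to 0.47 for Alas2 and 0.14 to 0.53 for Slc4a1, and none was called. The intervals of Hbb-bh1, Alas2 and Slc4a1 included a 1.5-fold higher level in Chd8+/- and that of Hba-a1 a 1.5-fold lower one, and those of the other 5 genes included neither.

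Much of the spread within a group was shared by 6 of the genes. Over the E12.5 Chd8+/- libraries, replicate 1 had the lowest Hbb-y, Hbb-bh1, Hba-x, Hbb-bt, Alas2 and Slc4a1 of the 3, and Chd8+/+ replicate 2 had the lowest of its group for the same 6 genes. The share of globin counts in all counts was 0.365%, 0.320% and 0.386% in E12.5 Chd8+/+ libraries and 0.321%, 0.453% and 0.440% in E12.5 Chd8+/- libraries. The summed erythroid markers were lowest in the same libraries, at 23.6 CPM in Chd8+/+ replicate 2 and 23.0 CPM in Chd8+/- replicate 1. At E12.5 the 8 platelet and megakaryocyte markers had 5 genes with an unadjusted p under 0.05, against 5.15% of all genes, all lower in Chd8+/- (summed level 22.3 to 27.4 CPM in Chd8+/+ and 15.2 to 22.2 CPM in Chd8+/-), and the 10 endothelial markers had 4, also lower, none of them called after adjustment (edgeR). Their part in the globin values was not tested.

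At P5 the embryonic genes were too low to test, and the other 6 were tested. None was called for genotype (edgeR, adjusted p under 0.05, which called 0.00536% of 18666 genes; DESeq2, with 651 genes called in all, and limma-voom, with 1, called none of the 6 either). With no filter on low counts, where edgeR called 995 genes in all, Hba-a1 and Hba-a2 were called (edgeR adjusted p = 0.000639 and 0.000758). An unadjusted p under 0.05 was reached by 3 of the 6, Hba-a1, Hba-a2 and Alas2, against 17.8% of all genes, and the same 3 showed no overlap between the genotypes, against 23.4%. Hba-a1 stood between 35.3 and 35.9 CPM in Chd8+/+ and between 22.4 and 33.4 CPM in Chd8+/- libraries (log2 fold change -0.41 ± 0.123 SE, unadjusted p = 0.00683, edgeR adjusted p = 0.145). Hba-a2 moved the other way, between 8.36 and 8.68 CPM in Chd8+/+ and between 8.78 and 16.4 CPM in Chd8+/- libraries (0.61 ± 0.177, unadjusted p = 0.00589, edgeR adjusted p = 0.139).

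The split between the 2 alpha copies set 2 libraries apart. Hba-a1 took 78.6% to 82.8% of the counts of both copies in the runs of the 3 P5 Chd8+/+ libraries, and 79.0% and 79.3% in the runs of P5 Chd8+/- replicate 3. In P5 Chd8+/- replicates 1 and 2 it took 57.0% to 62.8%, alike in both runs of each. Without P5 Chd8+/- replicate 3 both genes were called (log2 fold change -0.61, edgeR adjusted p = 0.0162 for Hba-a1, and 0.83, edgeR adjusted p = 0.0438 for Hba-a2), among 5 genes called in all. The sum of the copies was 43.7 to 44.5 CPM in Chd8+/+ and 35.9 to 42.2 CPM in Chd8+/- libraries, and it did not pass the test (-0.15 ± 0.0578 SE on the log2 scale, edgeR adjusted p = 0.219).

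The remaining members at P5 moved little. Alas2 stood between 4.63 and 5.10 CPM in Chd8+/+ and between 3.64 and 4.22 CPM in Chd8+/- libraries (log2 fold change -0.25 ± 0.102 SE, unadjusted p = 0.0337, edgeR adjusted p = 0.242). The log2 fold change was -0.09 for Hbb-bs (95% interval -0.24 to 0.05), -0.14 for Hbb-bt (-0.29 to 0.02) and -0.02 for Slc4a1 (-0.86 to 0.82), and only the interval of Slc4a1, at 12 to 40 counts per library, included 1.5-fold in either direction. Beside these, 7 of 10 endothelial markers had an unadjusted p under 0.05, against 17.8% of all genes, and a lower level in P5 Chd8+/- libraries (summed level 276.06 to 311 CPM in Chd8+/+ and 248 to 272 CPM in Chd8+/-), as did 5 of 6 choroid plexus markers (436 to 566 and 319 to 377 CPM), none of them called after adjustment (edgeR). The 10 white blood cell markers summed to 9.71 to 13.5 CPM in P5 Chd8+/+ and 10.5 to 20.5 CPM in P5 Chd8+/- libraries, with 1 of the 4 tested, S100a9, at an unadjusted p under 0.05 (log2 fold change 2.44 ± 1.02 SE, edgeR adjusted p = 0.252). The level of S100a9 was 0.210 ± 0.183 CPM (SD) in Chd8+/+ and 1.08 ± 1.53 CPM in Chd8+/- libraries, so its spread in the latter exceeded its mean. The part of these markers in the differences of Hba-a1 and Alas2 was not tested.

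Whether the change with stage differed between the genotypes was tested as an interaction. None of the 9 genes was called (edgeR, adjusted p under 0.05, background 0%; DESeq2 called 8 genes in all and none of the 9). An unadjusted p under 0.05 was reached by 3 of the 9 against 10% of all 19676 genes tested, or 1972 genes. The 3 embryonic genes held 7 counts or fewer per genotype at P5 (SE 1.08 for Hbb-y, 6.42 for Hbb-bh1 and 4.79 for Hba-x). These were too low at P5 for a call, so the test bears on the adult globins, Alas2 and Slc4a1 only. Hbb-bt fell further in Chd8+/- by -0.36 ± 0.166 SE on the log2 scale (unadjusted p = 0.0491, edgeR adjusted p = 0.495) and Alas2 by -0.55 ± 0.242 (unadjusted p = 0.038, edgeR adjusted p = 0.473). Hba-a2 fell less, by 0.62 ± 0.226 (unadjusted p = 0.0161, edgeR adjusted p = 0.431), while the summed alpha pair gave 0.04 (edgeR adjusted p = 0.948). Over fits that each dropped 1 library, the interaction ran from -0.49 to -0.22 for Hbb-bt, -0.72 to -0.40 for Alas2 and 0.41 to 0.84 for Hba-a2, and none was called. For Hbb-bt and Alas2 the larger fold in Chd8+/- libraries was therefore not shown to differ from that in Chd8+/+.

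Genes of the related lists showed no called genotype difference at either stage (edgeR, adjusted p under 0.05). At E12.5 the 13 tested genes of the list of further red cell proteins all had higher estimates in Chd8+/- libraries, with a median log2 fold change of 0.20, and 13 of 15 membrane genes did, with a median of 0.23, against 0.00 over all genes. None of these 28 genes had an unadjusted p under 0.05. In the other lists, against 5.15% of all genes, those that had one were Hbq1b at 0.57 ± 0.247 SE (unadjusted p = 0.0439, edgeR adjusted p = 0.942), Uros at 0.20 ± 0.0584 (unadjusted p = 0.00675, edgeR adjusted p = 0.942) and Alas1 at -0.13 ± 0.0524 (unadjusted p = 0.0322, edgeR adjusted p = 0.942). At P5, against 17.8% of all genes, they were Aqp1, a water channel of red cells and choroid plexus, at -0.60 ± 0.142 (unadjusted p = 0.0016, edgeR adjusted p = 0.113), Ngb at 0.30, Blvrb, biliverdin reductase, at 0.31, Dmtn at 0.14, Sox6, a repressor of embryonic globins, at -0.18, Fam210b at -0.16, Tfrc, the transferrin receptor, at -0.15, Nr2c2 at -0.12 and Alas1 at -0.12, with edgeR adjusted p from 0.137 to 0.26.

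Within the E12.5 groups, Hbb-bt, Alas2, Hba-x, Slc4a1 and Hbb-bh1 followed Hbb-y, and Hbb-bs, Hba-a2 and Hba-a1 did not. Over the 6 E12.5 libraries, after the mean of each group was taken off, the log2 CPM of Hbb-y had a Pearson r of 0.980 with Hbb-bt, 0.915 with Alas2, 0.910 with Hba-x, 0.837 with Slc4a1 and 0.792 with Hbb-bh1, of 0.262 with Hbb-bs, and of -0.226 and -0.611 with Hba-a2 and Hba-a1. Among the most alike of the other genes were Aph1a, Adamts4, Tmf1 and Lrrfip1, with r from 0.989 to 0.998. Hbb-bt held place 17 of 14717 by this measure. Over all 12 libraries the genes most like Hbb-bs were Ube2d3, Nfs1, Egln3, Tardbp and Ndufaf4, with r from 0.908 to 0.953, and its r with Hbb-bt was 0.279. These values are descriptions over 6 or 12 libraries that share depth and dissection, and none was tested.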

How the data were processed

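The unit of the deposited values is the raw count of read pairs per gene in each of 2 runs of each library, made by the authors with Trim Galore 0.4.1, TopHat2 2.1.0 (GRCm38.p4) and featureCounts 1.5.0 on Ensembl genes, without normalization. The P5 header records counting of pairs with no setting for strand or for multi-mapped reads, although the library protocol marked strand. The E12.5 command is not given in the sources used here. The deposited gene length, another kind of value (base pairs of merged exon, as the authors' table gives it), was used only for RPKM. The files hold totals per gene, so how reads were shared between gene copies is not visible.

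Runs were summed per library. The main test was edgeR 4.0.16 (quasi-likelihood, TMM, filterByExpr, Benjamini-Hochberg over all genes tested, threshold 0.05), with genotypes compared within a stage (6 libraries) and stages and their interaction in 1 model of 12. DESeq2 1.42.0, limma-voom (limma 3.58.1), other scalings, no filter, a replicate block and leaving out each library were alternatives. Single runs and summed copies were added after seeing the data. The code was tested on simulated counts. Intervals of counts are exact and cover counting error only. Labels do not state that replicates came from separate litters, so p-values measure the spread between these samples.

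The members and lists were chosen with earlier results of these data known. In each list, the 2 highest and 2 lowest genes among those called for stage in Chd8+/+, and each gene with an unadjusted genotype p under 0.05, were named. Genes called most alike had a mean of at least 1 CPM (prior count 2). Promoters came from RefSeq (GRCm38.p6) and transcripts from GENCODE vM21. Symbols were matched for 46005 of 46603 identifiers. No protein sequences were used. Some genes that the rule names are not reported here.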

Additional observations from a re-analysis of the deposited data

How the results depend on the processing

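The 9 calls for stage in Chd8+/+ were found under every alternative run, and those in Chd8+/- were 8 to 9 when each library was left out in turn. These counts include the 3 embryonic genes, which passed the filter on low counts through E12.5 only and could be called only lower. The calls of those 3 therefore do not show that a result holds across alternatives. The loss was Hbb-bs, at 0.31 (log2) when only the 6 Chd8+/- libraries were fitted (edgeR adjusted p = 0.0507), 0.16 without E12.5 Chd8+/- replicate 2 and 0.23 without P5 Chd8+/- replicate 3. With adult copies summed, the stage effect stood at -0.71 and -1.002 where Hbb-bs alone had been positive, because the sum includes Hbb-bt. Genotype calls among members stayed at 0 at E12.5 and in the interaction (embryonic genes too low at P5 for a call) under all alternatives. At P5 they were 0 to 2 when each library was left out, and 2, Hba-a1 and Hba-a2, with no filter on low counts, a setting that raised the number of genes called overall from 1 to 995 (DESeq2 called 651, and edgeR 327 without P5 Chd8+/- replicate 2 and 5 without replicate 3). The cause was not tested.

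Some estimates changed sign, most of them near 0. At E12.5 Hba-a2 stood at 0.013 without Chd8+/+ replicate 3, 0.077 without Chd8+/- replicate 3 and 0.22 with run 2 alone, and Hbb-bs at -0.016 without Chd8+/- replicate 3. Leaving out each library gave -0.13 to 0.077 for Hba-a2 and -0.016 to 0.26 for Hbb-bs. At P5 Slc4a1 stood at 0.0078 with DESeq2, 0.0059 with the replicate block, 0.36 without Chd8+/+ replicate 1, 0.33 without Chd8+/- replicate 3 and 0.11 with run 1 alone, with a range of -0.28 to 0.36 over libraries left out, and Hba-a2, at 0.61 alone, at -0.15 with its copy summed. The interaction of Hba-a1 stood at 0.035 without E12.5 Chd8+/- replicate 2 (range over libraries left out -0.33 to 0.035), 0.072 with run 1 alone and 0.045 with copies summed, and that of Slc4a1 at 0.0055 without P5 Chd8+/+ replicate 1 (range -0.64 to 0.0055). The cause was not tested.

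The embryonic share at E12.5 was 90.5% and 92.9% without Hba-a2 and Hbb-bt, 94.9% and 95.1% over beta-type genes and 60.6% and 66.6% over alpha-type genes. Same-numbered libraries correlated at -0.226, -0.104 and -0.093 at E12.5 and 0.227, 0.111 and 0.0434 at P5, so the numbers were not taken as pairs. With the replicate block the numbers of members called were 0 at each stage for genotype, 9 in each genotype for stage and 0 for the interaction. The embryonic genes are within the 9 and could be called only lower, and were too low at P5 for a call in the interaction. Depth limits the embryonic genes and Slc4a1 at P5.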
